A study of Mus musculus with 6 samples.

Results

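USAG-1, its paralog sclerostin, the LRP receptors to which these secreted proteins bind and the chaperone of those receptors were followed at the RNA level in HK-2, a human kidney cell line that was immortalized from proximal tubule epithelium. The 6 genes were taken by their symbols from the 39234 genes in the table, namely SOSTDC1 (which encodes USAG-1), SOST (sclerostin), LRP4, LRP5, LRP6 and MESD. All 6 had a row, and 5 of them passed the filter on low counts and were tested among 18188 genes. The design held 3 control cultures (labelled Cont) and 3 cultures with USAG-1 overexpression (labelled USAG1_OE), all of wild-type genotype. According to the study's methods, overexpression in cells was by transient transfection of expression plasmids. The labels do not say whether the 3 cultures of a group were started separately. Nor do they say whether control cells received an empty plasmid, or how many cells of a culture took up the plasmid. They name mouse as the organism, whereas the gene identifiers are human.

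USAG-1 and sclerostin are secreted cystine-knot proteins that bind the extracellular part of LRP5 and LRP6, the co-receptors that Wnt ligands engage together with Frizzled, and thereby limit Wnt/beta-catenin signaling. LRP4, a related receptor, presents sclerostin and USAG-1 at the cell surface and is also the receptor for agrin at the neuromuscular junction. MESD is a chaperone of the endoplasmic reticulum that LRP5 and LRP6 need to fold and reach the membrane. USAG-1 additionally binds bone morphogenetic proteins (BMPs), and in the adult kidney it is known as an abundant BMP antagonist of the tubule.

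Between 41236194 and 48699471 reads were counted on genes per library. Levels are given as CPM, the counts of a gene scaled to library size by TMM, which compares 1 gene between libraries and not different genes, since gene lengths were not used. Control replicate 3 stood apart, with a chi-square per degree of freedom of 47.0 and 48.1 against the other 2 controls, where all other pairs within a group lay between 6.79 and 8.70. Of 12 kidney epithelium markers, 9 were tested, among them KRT8 (1081 CPM in control cells) and PAX8 (375 CPM), with 2 higher (PAX8 and CDH2) and 1 lower (CDH6). The remaining 3, PAX2, HNF4A and CDH1, were at 0.208, 0.0319 and 0.0864 CPM in control cells. The summed level of this list was 2381 to 2829 CPM in control libraries and 2652 to 2783 CPM with USAG-1 overexpression. Of the 14 proximal tubule markers listed, 8 were tested, with GGT1, MME and DPP4 higher and FXYD2 lower. In control cells DPP4 had 186 CPM, GGT1 105 CPM, FXYD2 74.5 CPM and MME 17.2 CPM, whereas CUBN and AQP1 had 0.208 and 0.0896 CPM and LRP2 had no count in any library. The summed level of the proximal tubule list was 349 to 412 CPM in control libraries and 490.03 to 531 CPM in the other group. All 14 markers of T and NK cells were lower with USAG-1 overexpression, and their summed level was 92.7 to 115 CPM in control libraries and 10.7 to 13.9 CPM in the other group. Among all genes tested, 15.9% were differentially expressed (adjusted p under 0.05, edgeR), with 8.95% higher and 6.91% lower. The part of these marker lists in the results below was not tested. HK-2 is an epithelial line, and the source of the T and NK cell transcripts was not tested. A difference in that source between the groups cannot be told apart from the overexpression. In bulk RNA, fewer cells of a type and less RNA per cell cannot be told apart.

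SOSTDC1 was the gene that the design changed, and it was far higher in each USAG-1-overexpressing culture than in each control culture. SOSTDC1 (ENSG00000171243; hg38, chromosome 7, 16461481 to 16530580, minus strand) had 1.89, 1.62 and 1.41 CPM in the control libraries and 110, 89.5 and 103 CPM in the libraries with USAG-1 overexpression. The lowest level with overexpression was 47.3 times the highest control level. The rise was 61.5-fold (95% interval 49.8 to 75.9, adjusted p = 6.96e-07, quasi-likelihood test of edgeR, adjusted by Benjamini-Hochberg over all genes tested). No other gene tested had a smaller p. By log2 fold change SOSTDC1 ranked 2, and 0.099% of the genes tested had a larger change in either direction. The relative spread of SOSTDC1 was 14.8% of the mean in control cells and 10.5% in overexpressing cells. The table gives 1 value per gene, so transcripts of the plasmid and of the cells' own gene cannot be told apart.

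SOST, which encodes sclerostin, an antagonist of LRP5 and LRP6 best known as a product of osteocytes, was not detected. SOST (ENSG00000167941; chromosome 17, 43753738 to 43758791, minus strand) had 0 counts in each of the 6 libraries. A count of 0 allows up to 3 counts, that is between 0.0608 and 0.0719 CPM in these libraries. This limit covers counting error only. Among the osteocyte and osteoblast markers, MEPE and SP7 also had 0 CPM in both groups, DMP1 had 0.0270 and 0 CPM, and BGLAP had 0.0675 and 0.127 CPM. PHEX, the only one of the 5 in the table that was tested, had 5.84 ± 0.819 CPM in control cells and 7.90 ± 0.277 CPM with overexpression (SD, n = 3 each, adjusted p = 0.0742, edgeR), with no overlap between groups. The control libraries thus held SOSTDC1 at 1.41 to 1.89 CPM, and SOST was below the limit of all 6 libraries.

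Of the 3 receptors, LRP6 was higher in USAG-1-overexpressing cells, and neither LRP4 nor LRP5 passed the threshold. LRP6 (ENSG00000070018; chromosome 12, 12116025 to 12267044, minus strand), the co-receptor whose phosphorylated tail recruits axin, had 3666, 4175 and 3424 counts in control cells and 5541, 5373 and 4845 counts with USAG-1 overexpression. On the CPM scale this was 87.8, 84.6 and 80.3 in control libraries and 121, 123 and 112 in the other group. The groups did not overlap, and the lowest overexpressing culture was 1.28 times the highest control culture. Mean levels were 84.2 ± 3.77 and 119 ± 5.66 CPM (SD, n = 3 each). The fold change was 1.41 (95% interval 1.27 to 1.56, log2 0.49, standard error 0.06, adjusted p = 0.00236, edgeR). By its p, LRP6 ranked 377 among the 18188 genes tested, and 7.63% of them had a larger log2 fold change. LRP6 overlaps BCL2L14 on the opposite strand, which had at most 7 counts in any library.

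LRP5 (ENSG00000162337; chromosome 11, 68312591 to 68449275, plus strand), the closest relative of LRP6 and a co-receptor with a known role in bone mass, had 67.3, 69.6 and 74.4 CPM in control cells. With USAG-1 overexpression it had 77.3, 79.9 and 72.9 CPM. A single overexpressing library, replicate 3, lay below the highest control library, replicate 3. The fold change was 1.09 (95% interval 0.981 to 1.21, adjusted p = 0.252, edgeR). Without control replicate 3, LRP5 passed the threshold (log2 fold change 0.17, adjusted p = 0.0341, same test). In the other 15 alternatives it did not, and its log2 fold change was positive in all 16.

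LRP4 (ENSG00000134569; chromosome 11, 46856717 to 46918550, minus strand), the receptor shared by sclerostin, USAG-1 and agrin, had 76.6, 72.2 and 81.0 CPM in control cells and 72.6, 73.9 and 67.1 CPM with USAG-1 overexpression. The groups overlapped, and the fold change was 0.930 (95% interval 0.833 to 1.04, adjusted p = 0.349, edgeR). LRP4-AS1, which lies on the opposite strand of the same locus, had 3 to 20 counts per library against 2896 to 3563 for LRP4. The study's sources do not say whether strand was used when reads were counted.

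MESD (ENSG00000117899; chromosome 15, 80946289 to 80989828, minus strand), the chaperone, had 51.0, 48.0 and 53.1 CPM in control cells and 50.7, 47.7 and 51.1 CPM in USAG-1-overexpressing cells. The 2 sets of values ran over nearly the same range. The fold change was 0.983 (95% interval 0.886 to 1.09, adjusted p = 0.837, edgeR). For MESD, LRP4 and LRP5 the upper end of the interval was below 1.27, the lower end of the interval for LRP6. CEMIP, which overlaps MESD on the opposite strand, had 0 to 34 counts per library.

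**Figure D1:**
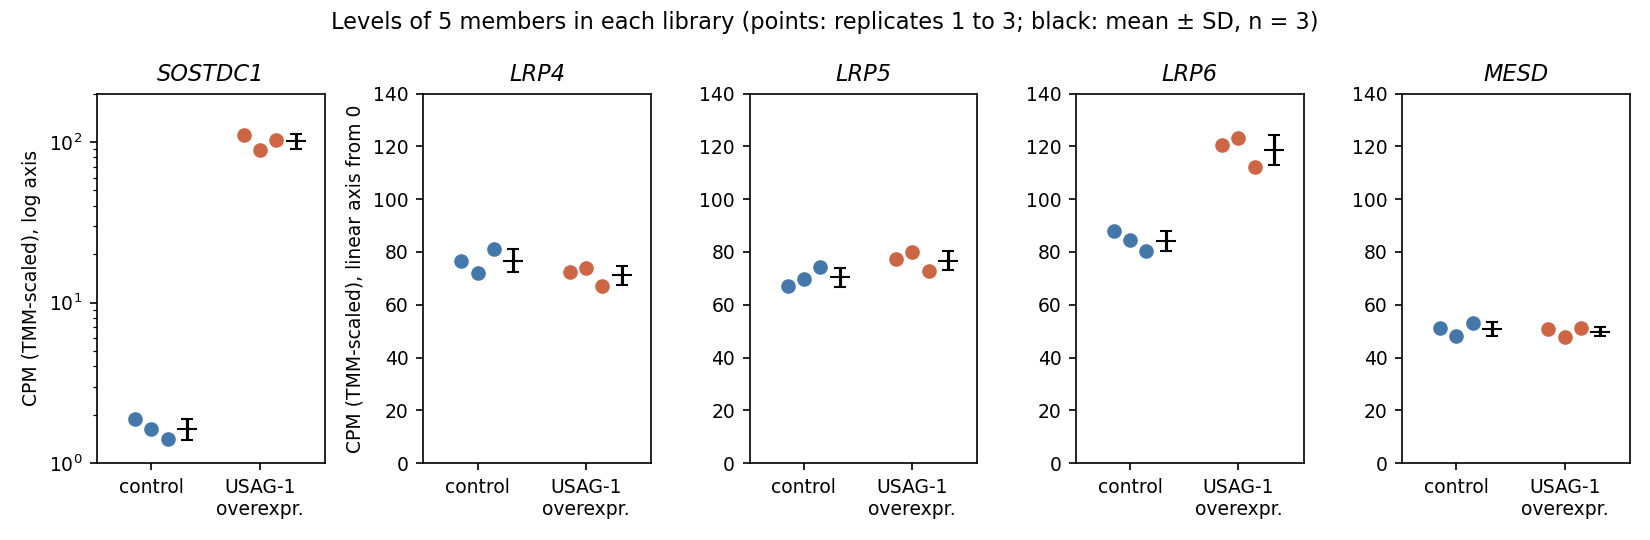
Levels of SOSTDC1, LRP4, LRP5, LRP6 and MESD in CPM in 3 control (blue) and 3 USAG-1-overexpressing (orange) libraries, with the mean ± SD in black; the SOSTDC1 axis is logarithmic, and SOST, at 0 counts, is not drawn. LRP6 lies between 80.3 and 87.8 CPM in control libraries and between 112 and 123 CPM with overexpression, whereas the groups overlap for LRP4, LRP5 and MESD.

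Thus 2 of the 5 members tested were differentially expressed, both of them higher. Among all genes tested, 15.9% were differentially expressed in either direction, 8.95% being higher and 6.91% lower. The groups did not overlap in the same 2 members, against 37.6% of all genes tested in either direction and 19.4% in the direction of a higher level. SOSTDC1 is the gene that was overexpressed, so its call checks the labels, and LRP6 is the remaining call.

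The receptors were also compared with each other inside each library, where library size and scaling cancel out. These ratios were chosen after the levels were seen. A ratio between genes depends on their lengths, so only its difference between groups is read. The ratio of LRP6 to LRP5 counts was 1.31, 1.22 and 1.08 in control libraries and 1.56, 1.54 and 1.54 with USAG-1 overexpression. The lowest value was in control replicate 3, and the groups did not overlap. For LRP6 to LRP4 the control ratios were 1.15, 1.17 and 0.992, and the ratios with overexpression were 1.66, 1.66 and 1.67. LRP5 to LRP4 changed less, from 0.920 ± 0.0432 to 1.08 ± 0.0105 (SD, n = 3 each), again with no overlap.

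Against the chaperone, LRP6 had 1.66 ± 0.135 counts per MESD count in control cells and 2.38 ± 0.189 in overexpressing cells (SD, n = 3 each). The ratios of LRP5 to MESD and of LRP4 to MESD overlapped between groups. In a two-sided exact permutation test, p was 0.1 for each of the 4 ratios whose groups did not overlap. This is the smallest p that 3 libraries against 3 allow, and it was 0.15 after Benjamini-Hochberg adjustment over the 6 ratios. A difference between LRP6 and the other receptors therefore did not pass a threshold of 0.05 in this test, which could not pass it. The ratios with LRP6 in the numerator share the rise of LRP6, so they are no separate support for it. Among single genes tested, the groups did not overlap for 37.6%, and the share among other gene pairs was not counted.

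**Figure D2:**
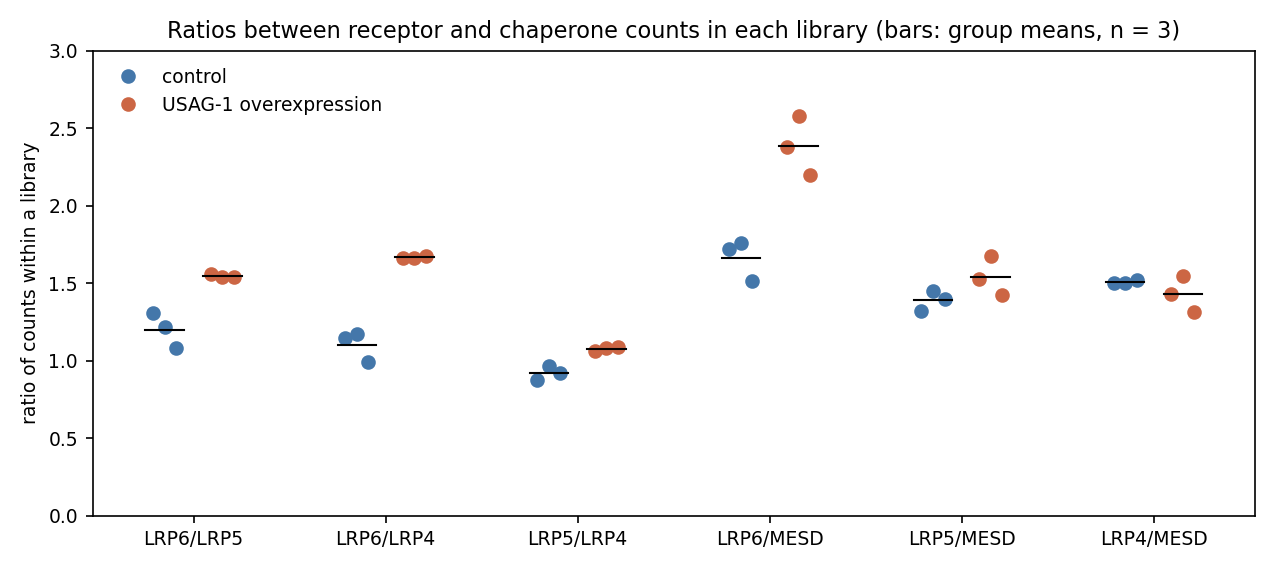
Ratio of raw counts between 2 genes within each library, for 6 pairs of LRP6, LRP5, LRP4 and MESD (blue, control; orange, USAG-1 overexpression; bars, group means of 3 libraries). The 3 ratios with LRP6 in the numerator and LRP5/LRP4 separate the groups, at 1.20 against 1.55 on average for LRP6/LRP5, whereas LRP5/MESD and LRP4/MESD overlap.

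Other genes of the pathway were taken from 5 lists. Of 84 genes listed, 82 had a row and 59 were tested. Of these 59, 10 were differentially expressed (7 higher and 3 lower), or 16.9%, close to the 15.9% of all genes tested. The median log2 fold change of the 59 genes was 0.06, and that of all genes tested was -0.02. Without control replicate 3 the count was 21, and it was 6 without USAG-1 overexpression replicate 1 and 5 without USAG-1 overexpression replicate 2. The count over all genes moved in the same directions, to 5091, 1306 and 1137 in that order, against 2884 with all libraries.

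Among regulators that act on LRP5 and LRP6 at the cell surface, 13 of 24 were tested and 1 was differentially expressed. This was 7.69%, against 15.9% of all genes tested. The called gene was DKK1, a secreted inhibitor that binds LRP6 and, with Kremen proteins, removes it from the membrane. DKK1 had 50.4, 55.6 and 67.4 CPM in control cells and 96.1, 99.0 and 106 CPM in USAG-1-overexpressing cells. Each culture of the latter lay above each control, and the fold change was 1.74 (log2 0.80, standard error 0.11, adjusted p = 0.00254, edgeR). DKK3, a secreted relative of DKK1, did not pass the threshold (292 ± 24.6 against 342 ± 12.9 CPM, SD, n = 3 each, adjusted p = 0.0647, edgeR). The same held for ZNRF3, a ubiquitin ligase that clears Frizzled and LRP6 from the membrane (adjusted p = 0.062, edgeR), and for KREMEN1 (adjusted p = 0.475, edgeR). The R-spondins RSPO1, RSPO2 and RSPO4 had 0 CPM in both groups.

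Inside the cell, the tail of LRP6 is phosphorylated by GSK3 and casein kinase 1 in a complex with Dishevelled and axin. All 23 genes of this list were tested, with 2 higher, 1 lower and a median log2 fold change of 0.02. The called share was 13.0%, against 15.9% of all genes tested. GSK3B, a kinase of both the LRP6 tail and beta-catenin, had 105, 99.5 and 107 CPM in control cells and 129, 134 and 127 CPM with overexpression. DVL3, a Dishevelled protein, had 164, 157 and 153 CPM in control cells and 193, 195 and 186 CPM with overexpression. The groups were apart for both genes, by 1.25-fold for GSK3B (adjusted p = 0.00832, edgeR) and 1.21-fold for DVL3 (adjusted p = 0.0124, edgeR). GSK3B lost the call without USAG-1 overexpression replicate 2 (log2 fold change 0.31), and DVL3 without replicate 1 (0.27) or 2 (0.27). APC2, a scaffold of the beta-catenin destruction complex, was lower (log2 fold change -0.48, adjusted p = 0.0343, edgeR) and lost the call in 8 of 16 alternatives, including 5 of the 6 that left out a library (-0.53 to -0.42). CTNNB1, which encodes beta-catenin, had 376 ± 44.0 and 350.2 ± 11.1 CPM (SD, n = 3 each, adjusted p = 0.469, edgeR).

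LRP6 was also set beside related endocytic receptors of its family and the proteins that chaperone or sort them. Of 14 genes listed, 13 were tested, with 2 higher and 1 lower and a median log2 fold change of 0.02. The called share was 23.1%, against 15.9% of all genes tested. SORL1, a sorting receptor, fell by 1.08 on the log2 scale from 6.55 ± 1.18 CPM in control cells (SD, n = 3, adjusted p = 0.00836, edgeR).

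VLDLR and LRP1, an endocytic receptor with many ligands, were higher by log2 fold changes of 0.32 (adjusted p = 0.0131) and 0.22 (adjusted p = 0.0348, edgeR). VLDLR lost the call without USAG-1 overexpression replicate 1 (0.31), 2 (0.32) or 3 (0.32). LRP1 lost it in 8 of 16 alternatives, among them 5 of the 6 that dropped a library (0.20 to 0.25). LRP10 did not pass the threshold (log2 fold change 0.20, adjusted p = 0.0769, edgeR). LRPAP1, a chaperone that does for several family members what MESD does for LRP5 and LRP6, had 116 and 110 CPM on average (adjusted p = 0.655, edgeR).

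**Figure D3:**
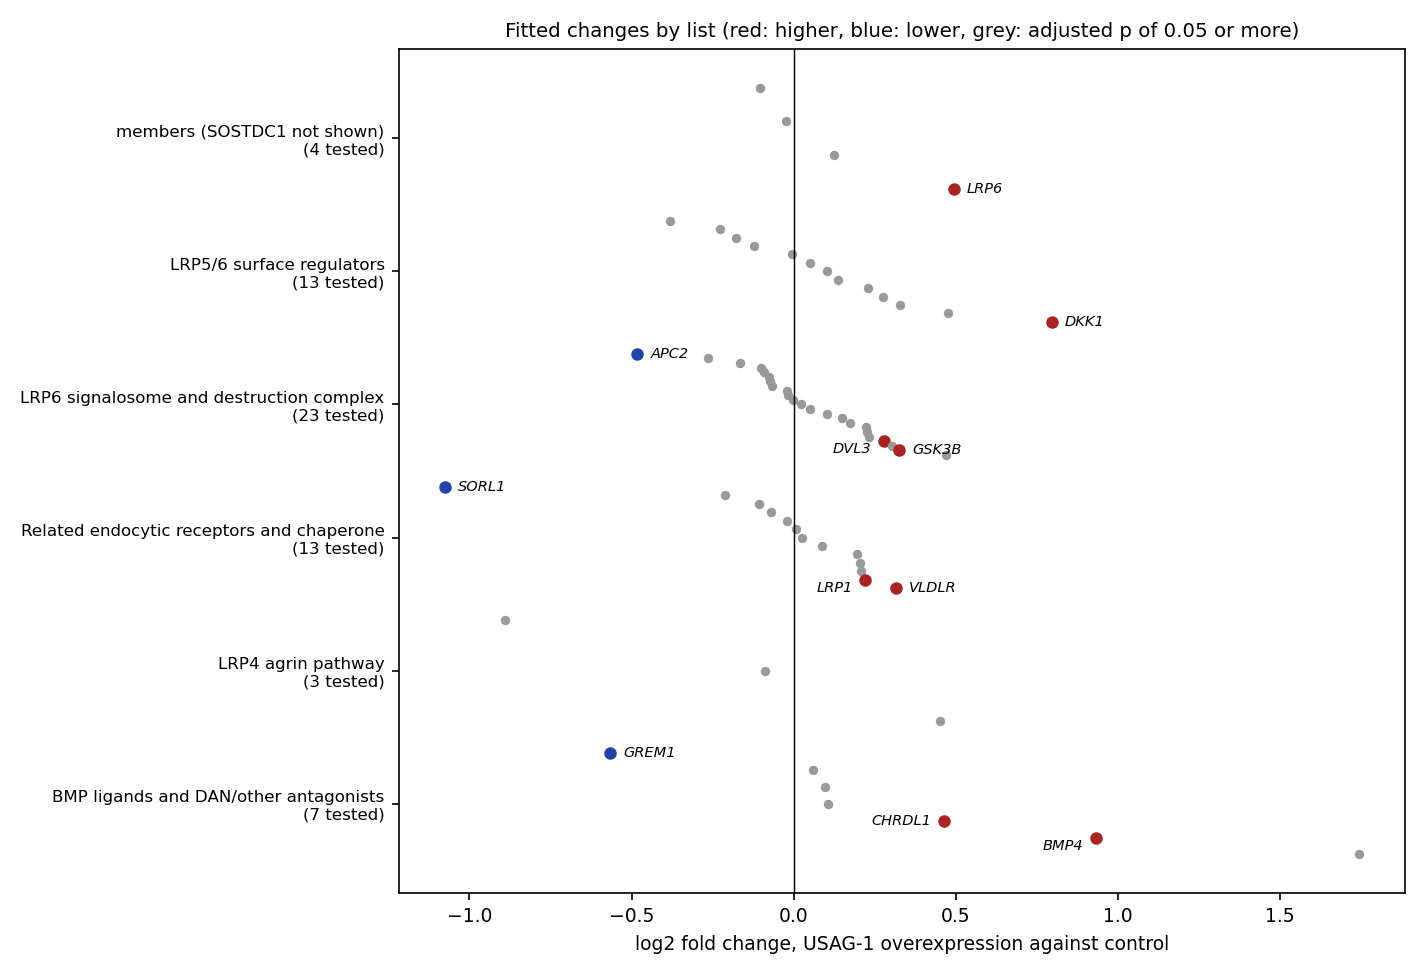
Fitted log2 fold changes (USAG-1 overexpression against control) of the tested members and of the 59 tested pathway genes by list, 1 point per gene, with called genes in red (higher) or blue (lower) and labelled; SOSTDC1, at 5.94, is not drawn. LRP6 stands at 0.49 among the members, and DKK1 is the only called surface regulator, at 0.80.

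Of the agrin pathway of LRP4, 3 of 6 genes were tested and 0 were differentially expressed by edgeR, DESeq2 or limma-voom. Among all genes tested, edgeR called 15.9%. None of these 3 genes (AGRN, DOK7 and CHRNB1) had an unadjusted p under 0.05 in edgeR. AGRN, the ligand, had 1147 ± 16.8 CPM in control cells and 1078 ± 34.9 CPM with overexpression (SD, n = 3 each, adjusted p = 0.261, edgeR). MUSK, the kinase that LRP4 activates in muscle, had 4 counts in control replicate 1 and 0 counts in the other 5 libraries.

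On the BMP side, 15 of 17 listed ligands and antagonists had a row and 7 were tested, with 2 higher and 1 lower. The called share of these 7 genes was 42.9%, against 15.9% of all genes tested. BMP4, a ligand, had 5.25, 3.93 and 4.62 CPM in control cells and 9.17, 7.49 and 9.64 CPM in USAG-1-overexpressing cells. This was a 1.91-fold rise (log2 0.93, standard error 0.16, adjusted p = 0.00817, edgeR), with the groups apart. BMP7, the ligand for which USAG-1 is best known in the kidney, had 0 CPM in both groups. GREM1, a BMP antagonist of the DAN family to which USAG-1 and sclerostin are related, fell from 387 ± 14.6 to 262 ± 4.13 CPM (SD, n = 3 each, adjusted p = 6.63e-04, edgeR). CHRDL1, a chordin-like antagonist, rose from 281 ± 8.87 to 387 ± 8.44 CPM (SD, n = 3 each, adjusted p = 0.00137, edgeR).

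The genes whose profile lay nearest to that of SOSTDC1 over the 6 libraries were BEST1, TCIM and ANKRD1. The measure was the root mean square difference of the centred log2 CPM, among genes with at least 5 CPM on average. It was 1.68 for BEST1, 2.06 for TCIM and 2.16 for ANKRD1, where the spread of SOSTDC1 around its own mean was 2.96. BEST1 had 5.80, 15.0 and 83.9 CPM in control cells and 365, 141 and 366 CPM with overexpression, so its control libraries differed widely among themselves. BEST1 overlaps FTH1, the ferritin heavy chain gene, over 4744 bases on the opposite strand. FTH1 had 220952 to 294000 counts per library against 242 to 16745 for BEST1, so with the strand setting of the counting unknown the level of BEST1 is uncertain. FTH1 itself did not pass the threshold (fold change 1.12, adjusted p = 0.324, edgeR). How much of the BEST1 count came from FTH1 was not tested. TCIM had 8.27 and 28.8 CPM on average in control and overexpressing cells, and ANKRD1 had 13.1 and 39.7 CPM. These genes were chosen for their likeness, so the values are a description. The profiles were centred but not scaled, so the measure picks genes with a large rise. The receptors, with log2 fold changes of -0.11 (LRP4) to 0.49 (LRP6), could not be among them. Their absence therefore says nothing about their pattern over the libraries.

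The call of LRP6 was present in each of the 16 alternatives, which changed the scaling, the filter, the test or the libraries. Its log2 fold change ran from 0.46, with an offset for genomic span, to 0.54, without USAG-1 overexpression replicate 3. The highest adjusted p was 0.0201, without USAG-1 overexpression replicate 2.

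**Figure D4:**
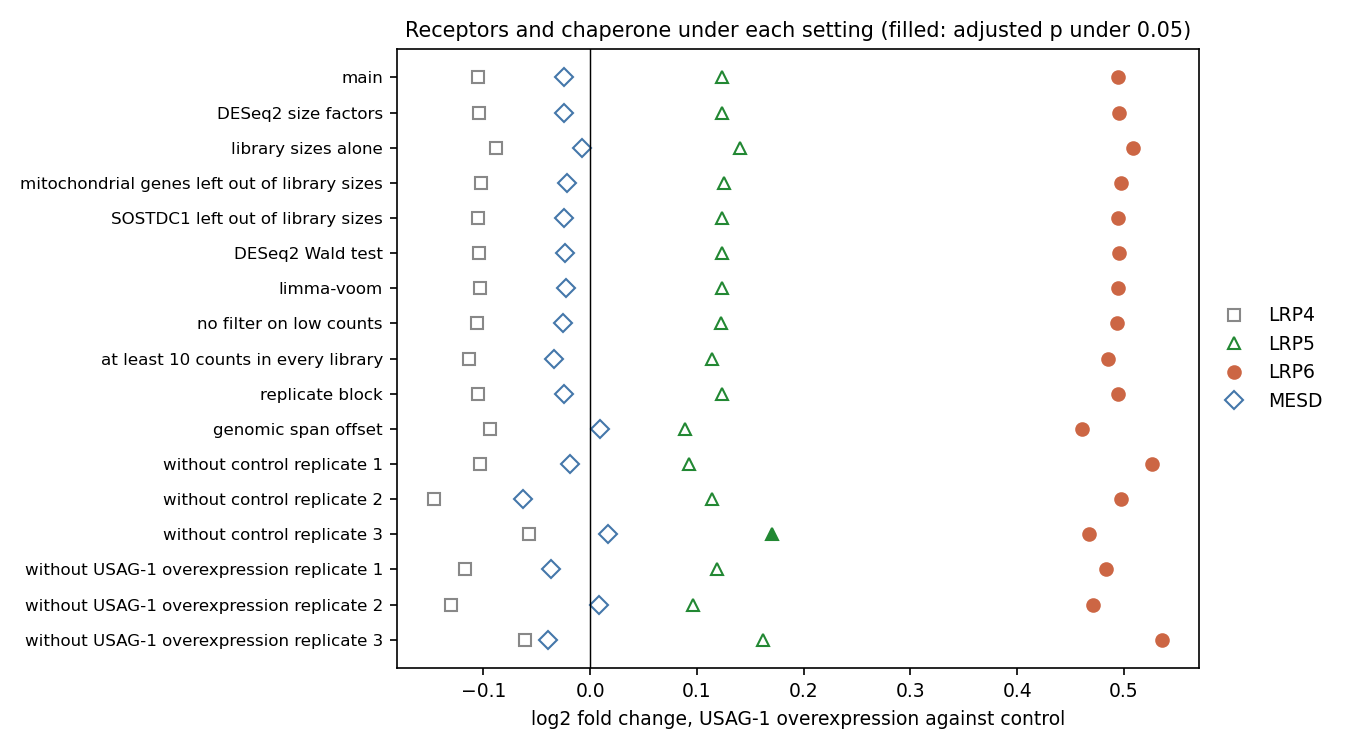
Log2 fold changes of LRP4 (squares), LRP5 (triangles), LRP6 (circles) and MESD (diamonds) in the main analysis and 16 alternatives, filled where the adjusted p was under 0.05. LRP6 stays between 0.46 and 0.54 and is filled throughout, LRP5 is filled once, without control replicate 3, and MESD lies on either side of 0.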

How the data were processed

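RNA from 3 control and 3 USAG-1-overexpressing HK-2 cultures was sequenced. The authors deposited whole-number counts per gene for the 6 libraries, without normalization, under a name that speaks of FPKM. Per the labels, libraries were poly(A)-selected and strand-specific, whereas the series' design text speaks of rRNA removal. The submitters' processing notes name hg38, cutadapt 1.9 and FastQC. The aligner and the counting tool are not given in the sources used here. Nothing in the labels says that cultures were started separately, so p-values measure the spread between these samples, which may be technical.

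Genes were filtered with edgeR 4.0.16 (filterByExpr), which left 99.9% of the counts, scaled by TMM and tested with its quasi-likelihood test in R 4.3.3 without a replicate block. P-values were adjusted by Benjamini-Hochberg over all genes tested, with a threshold of 0.05. Standard errors, and the 95% intervals built on them, were derived from each gene's fold change and F statistic. Alternatives used DESeq2 1.42.0, limma 3.58.1, other scalings, filters, a replicate block, an offset for genomic span, and each library left out. The code was tested on simulated data. The members and the lists were chosen with earlier results of these data known. Named were all members, all called genes of a pathway list, its highest-expressed genes, and the genes nearest to SOSTDC1. Further genes were chosen after their values were seen. Overlaps of SOSTDC1 with other genes and some genes of the lists are not reported here, and no human sequence was used here.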

Additional observations from a re-analysis of the deposited data

How the results depend on the processing

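Across the 16 alternatives, SOSTDC1 and LRP6 were called in each, and 3 members were called only without control replicate 3, where LRP5 joined them. With a library left out, the number of members called was 2 to 3 and the number of pathway genes called was 5 (without USAG-1 overexpression replicate 2) to 21 (without control replicate 3). Under the other alternatives the latter was 8 to 13, against 10. Among all genes, 1137 and 5091 were called without the same 2 libraries, against 2884. The small negative log2 fold change of MESD turned positive with the genomic span offset (0.0094), when control replicate 3 was dropped (0.017) or overexpression replicate 2 was (0.0083). Over the analyses with a library left out it ran from -0.063 to 0.017, and MESD was called in none. The cause was not tested. Same-numbered libraries of the groups did not deviate together (correlations -0.054 to 0.070, and 2 of 6 libraries were closest to their own number), so the numbers were not taken to pair the cultures. With the replicate block, 2 members, 9 pathway genes and 2381 of all genes were called, and LRP6 had a log2 fold change of 0.49 (adjusted p = 0.00666, edgeR). With 3 libraries per group, the exact tests of ratios cannot go below p = 0.1, and counts near 0 (SOST, BMP7) allow no fold change.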

Other observations

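HSPA5 and GPX4, whose proteins the study relates to USAG-1, did not pass the threshold at the RNA level. In overexpressing HK-2 cells, the study itself found GPX4 mRNA not significantly changed by RT-qPCR, while GPX4 protein was lower. It likewise saw HSPA5 protein not significantly affected. HSPA5 is the main chaperone of the endoplasmic reticulum, in which MESD also works. It had 1169 ± 40.5 CPM in control cells and 1210.4 ± 34.2 CPM in USAG-1-overexpressing cells (SD, n = 3 each, adjusted p = 0.564, edgeR). The log2 fold change of HSPA5 was 0.05, and it was 0.19 with the genomic span offset (adjusted p = 0.0771, edgeR). GPX4 had 136, 141 and 188 CPM in control cells and 125, 134 and 142 CPM with overexpression (adjusted p = 0.289, edgeR). Control replicate 3 was the highest of the 6 libraries, and without it the log2 fold change moved from -0.21 to -0.04.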
